A study of Mus musculus with 20 samples.

Results

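Resting gastrocnemius, a fast-fibre calf muscle, was compared between mice labelled as having lost Bmal1 in skeletal muscle and mice given vehicle. All animals in the study carried the genotype Cre+:iMSBmal1 fl/fl, so vehicle muscle also held the Cre transgene and the floxed alleles. The 10 samples used here were the 5 Vehicle Control and the 5 iMSBmal1KO Control samples, taken without exercise at ZT13, where zeitgeber time counts hours from lights on. They are 10 of 20 samples, and the remaining samples came from mice under the same knockout and vehicle labels, 1 h after 30 min of treadmill exercise. The promoter that drives Cre, the agent that induces it, and the age and sex of the mice are not given in the sources used here. Any effect of the inducing agent itself cannot be told apart from loss of Bmal1 in this comparison. Nothing in the labels says that the samples of a group came from separate animals, so the p-values measure the spread between these samples, which may be technical. Genes were taken across the whole count table, without choice by result: 13560 of 53311 genes passed a filter on low counts and were tested.

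BMAL1, encoded by Arntl, pairs with CLOCK or NPAS2 and activates genes through short DNA letters called E-boxes. Its targets include the period and cryptochrome repressors, the REV-ERB repressors Nr1d1 and Nr1d2, and the PAR bZIP activators Dbp, Tef and Hlf, which act through D-boxes. In skeletal muscle this clock is known for its links to glucose uptake, to the choice between carbohydrate and fat as fuel, and to structural genes of the sarcomere.

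The targeted gene was read first. Arntl stood at 9.74, 9.94, 12.8, 14.3 and 14.9 CPM in vehicle libraries 1 to 5 and at 15.9, 16.4, 12.7, 15.3 and 12.1 CPM in knockout-labelled libraries 1 to 5, where CPM is a library's counts scaled to a total of 1000000. The groups overlapped, and the whole-gene count was not lower in the knockout-labelled libraries (log2 change 0.24, SE 0.23, adjusted p 0.725, edgeR), where log2 change is the log2 fold change, knockout-labelled over vehicle, and SE its standard error. A whole-gene count holds reads from exons outside a floxed segment, and per-exon counts were not analysed here. The samples are therefore called knockout-labelled, and every direction below rests on the labels. Total counts ran from 8057859 to 10461995 in vehicle and from 8045154 to 9389764 in knockout-labelled libraries. Mitochondrial transcripts took 7.55% to 14.96% of counts in vehicle and 8.06% to 14.26% in knockout-labelled libraries. Markers of fast and of slow muscle fibres were present in every library, and the slow markers differed widely within each group, as given with the fibre genes.

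At rest 523 genes, 3.86% of those tested, passed an edgeR quasi-likelihood test at a Benjamini-Hochberg adjusted p under 0.05, called here for short. Of these, 244 (1.8% of the genes tested) were higher and 279 (2.06%) lower in knockout-labelled muscle. Differences were mostly below 2-fold: the median absolute log2 fold change of the called genes was 0.62, 241 of them differed by less than 1.5-fold, and 134 by 2-fold or more, 52 higher and 82 lower. The log2 fold change of all tested genes had a median of 0.01, with 5% of genes below -0.53 and 5% above 0.49. Over all tested genes, 5.8% had library ranges that lay apart between groups. Among called genes with non-overlapping ranges and a mean log2 CPM of at least 1 there were 189 higher and 235 lower, and the 12 largest of each direction with an established gene name are described next. Their lack of overlap follows from that choice.

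**Figure D1:**
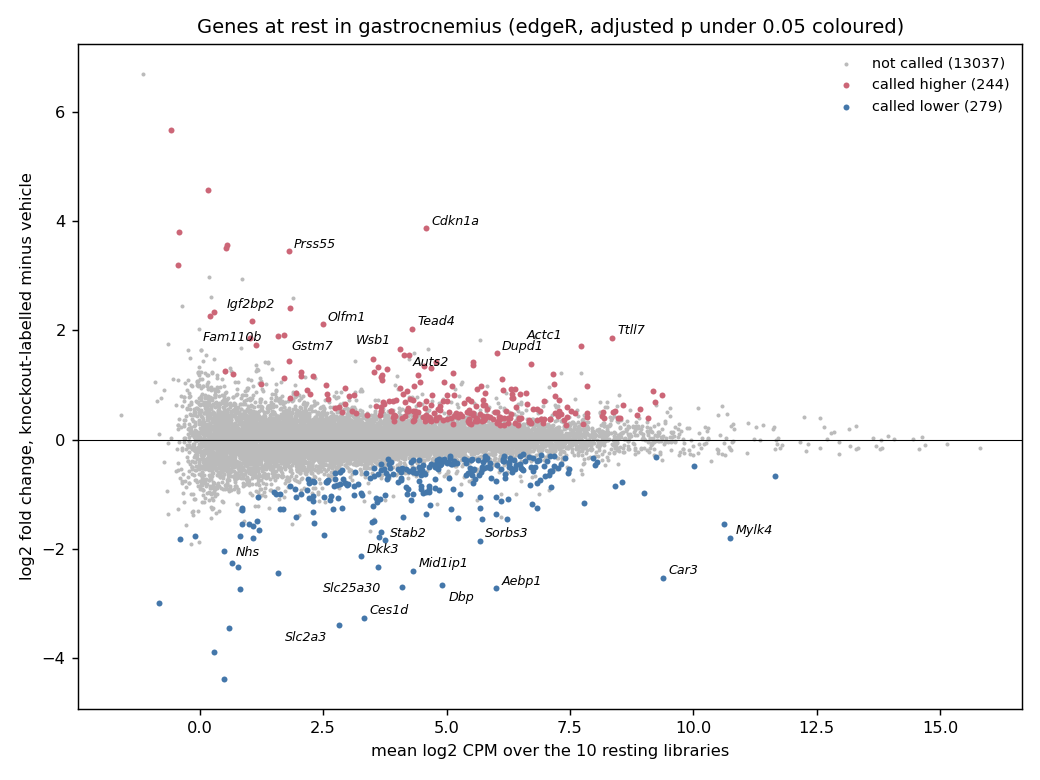
Each point is 1 of the 13560 genes, placed by its mean log2 CPM over the 10 resting libraries (horizontal) and its log2 fold change, knockout-labelled minus vehicle (vertical). The 244 genes called higher and 279 called lower are coloured, and the 12 largest rises and 12 largest falls that passed the naming rule carry their names, from Cdkn1a at 3.87 to Slc2a3 at -3.40.

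The largest rise was in Cdkn1a, which encodes p21, an inhibitor of cyclin-dependent kinases. It stood at 4.41, 7.17, 6.74, 6.77 and 6.44 CPM in vehicle against 88.4, 77.1, 62.5, 129 and 104 CPM in knockout-labelled libraries. Every knockout-labelled library was far above every vehicle library (log2 change 3.87, SE 0.20, adjusted p 5.45e-11). Tead4, a TEA-domain transcription factor that partners YAP and is known from myogenic differentiation, stood at 8.35, 7.704, 10.4, 11.9 and 10.3 CPM in vehicle against 46.9, 30.7, 33.9, 45.8 and 40.5 CPM in knockout-labelled libraries (log2 change 2.02, SE 0.16, adjusted p 2.26e-08). Its lowest knockout-labelled library lay above its highest vehicle library. Ttll7, an enzyme that adds glutamate chains to tubulin, stood at 149, 144, 176, 189 and 218 CPM in vehicle against 739, 398, 677, 853 and 531 CPM in knockout-labelled libraries (log2 change 1.87, SE 0.29, adjusted p 6.75e-04). Actc1, the cardiac alpha-actin that fetal skeletal muscle also makes, stood at 188, 141, 43.4, 137 and 113 CPM and 432, 407, 289.8, 473 and 426 CPM in the same order (log2 change 1.71, SE 0.30, adjusted p 0.00192). Its vehicle libraries varied several-fold among themselves, yet none reached the lowest knockout-labelled library.

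Wsb1, the substrate receptor of a ubiquitin ligase, stood at 7.54, 9.76, 10.7, 10.3 and 7.99 CPM in vehicle against 25.7, 25.4, 27.8, 34.8 and 31.8 CPM in knockout-labelled libraries (log2 change 1.65, SE 0.25, adjusted p 4.27e-04). Auts2, a nuclear protein of a Polycomb complex variant, rose from 10.3 ± 2.17 to 30.1 ± 6.43 CPM (mean ± SD, n = 5 a group, as in all such pairs here; log2 fold change 1.55, edgeR adjusted p 1.18e-04). Dupd1, a dual-specificity phosphatase of muscle, rose from 38.4 ± 13.2 to 115 ± 18.9 CPM (log2 change 1.58, SE 0.37, adjusted p 0.0227). In fits that left out each of the 10 libraries in turn (leave-one-out fits), the Dupd1 call was lost 4 times, with adjusted p reaching 0.0614 (without vehicle library 2). The other rises were in genes of low count. Prss55, a serine protease known from testis, held 2 to 13 counts a library in vehicle and 69 to 127 in knockout-labelled muscle (log2 change 3.44). Its neighbour and relative Prss51 rose as well (log2 fold change 3.56, adjusted p 2.86e-06), and reads of such related genes may be split between them. Igf2bp2, an RNA-binding protein of IGF2 messenger RNA, held 2 to 12 against 22 to 55 counts (2.17). Olfm1, a secreted olfactomedin glycoprotein, held 10 to 37 against 71 to 157 counts (2.11), Gstm7, a glutathione transferase, 5 to 36 against 38 to 86 (1.91), and Fam110b, a centrosome-associated protein, 11 to 17 against 25 to 75 (1.90). The related Gstm1 moved the other way, at 105 ± 12.4 and 76.9 ± 2.84 CPM (log2 change -0.45, SE 0.10, adjusted p 0.00633), and the family's counts are uncertain because its members resemble each other.

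The largest fall was in Slc2a3, which encodes the glucose transporter GLUT3. It stood at 13.9, 14.6, 23.9, 31.4 and 35.98 CPM in vehicle against 2.86, 1.03, 3.87, 2.37 and 1.17 CPM in knockout-labelled libraries (log2 change -3.40, SE 0.43, adjusted p 7.47e-05). Vehicle libraries varied among themselves, but none came near the knockout-labelled range. Ces1d, a carboxylesterase that hydrolyses triglyceride, stood at 37.7, 50.7, 25.3, 26.8 and 30.98 CPM in vehicle against 9.201, 0.919, 1.99, 3.23 and 2.88 CPM in knockout-labelled libraries (log2 change -3.26, SE 0.42, adjusted p 1.02e-04). Knockout-labelled library 1 was the highest of its group, and Ces1 relatives can share reads. Aebp1, a secreted collagen-binding protein of the matrix, stood at 149.6, 143, 168, 179.6 and 184 CPM in vehicle against 27.7, 23.7, 21.3, 21.03 and 30.9 CPM in knockout-labelled libraries (log2 change -2.73, SE 0.12, adjusted p 7.71e-14), with little spread in either group. Slc25a30, a carrier of the inner mitochondrial membrane, stood at 29.8, 43.4, 54.7, 43.4 and 58.4 CPM in vehicle against 5.84, 4.14, 11.2, 10.8 and 3.51 CPM in knockout-labelled libraries (log2 change -2.69, SE 0.31, adjusted p 2.54e-05), a clear separation despite spread in both groups.

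Car3, a carbonic anhydrase abundant in slow fibres and fat cells, stood at 1443, 1506, 1645, 1856 and 1657 CPM in vehicle against 271, 363, 202, 246 and 324 CPM in knockout-labelled libraries (log2 change -2.53, SE 0.18, adjusted p 6.17e-09). In vehicle it did not follow the slow-fibre genes: library 5, the lowest in those genes, was among the high ones for Car3. In knockout-labelled muscle, library 2 was highest for both, library 3 was lowest for Car3 and library 4 was lowest in slow-fibre genes. Mylk4, a kinase of the myosin light chain kinase family, stood at 2771, 2749.5, 3492, 3554 and 3921 CPM and 790.1, 601, 1479, 1076 and 788 CPM in the same order (log2 change -1.80, SE 0.22, adjusted p 2.54e-05). None of the knockout-labelled libraries reached a vehicle library for either gene. Mid1ip1, a protein that promotes assembly of acetyl-CoA carboxylase, fell from 47.1 ± 12.5 to 8.89 ± 2.81 CPM (log2 change -2.41, SE 0.41, adjusted p 0.00164). An antisense gene over its exons, Gm14493, fell by about the same amount (log2 fold change -2.33, edgeR adjusted p 0.00138), and without a stated strand setting the reads of both cannot be told apart. Dkk3, a secreted protein of the Dickkopf family, fell from 21.2 ± 9.402 to 4.84 ± 2.17 CPM, and Sorbs3, the focal adhesion adaptor vinexin, from 98.2 ± 23.4 to 27.1 ± 3.38 CPM (log2 fold changes -2.13 and -1.86). Stab2, a scavenger receptor for hyaluronan, fell from 25.99 ± 6.24 to 7.21 ± 2.305 CPM (log2 fold change -1.85), together with its antisense neighbour Gm16268. Nhs, a regulator of the actin cytoskeleton, fell from 3.63 ± 0.948 to 1.03 ± 0.437 CPM (log2 fold change -1.80). Dbp, the remaining one of the 12, belongs to the clock genes. In bulk tissue, fewer cells of a type and less RNA per cell cannot be told apart for any of these genes.

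**Figure D2:**
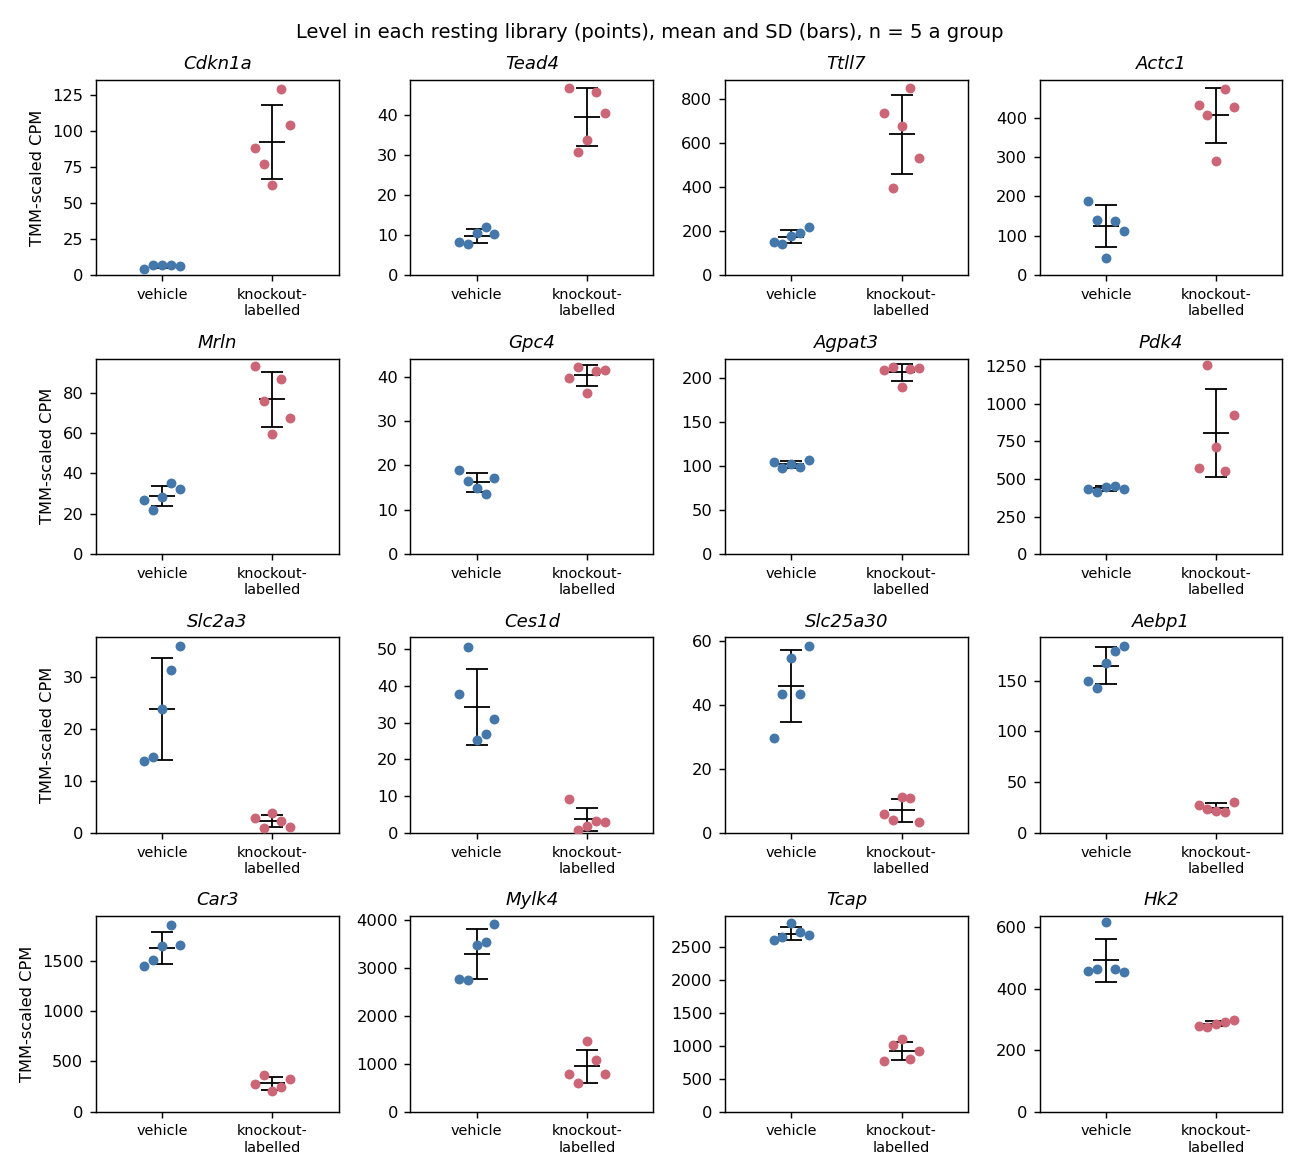
Each panel shows 1 gene, with TMM-scaled CPM from 0 on the vertical axis, 1 point for each of the 5 vehicle and 5 knockout-labelled resting libraries, and bars for the mean and SD. The 16 genes were chosen with their values known, most by a rule that requires ranges to lie apart. That no panel shows overlap thus follows from the choice, beside 5.8% of all tested genes with ranges apart. Cdkn1a lies at or below 7.17 CPM in vehicle and at or above 62.5 CPM in knockout-labelled libraries. Hk2 lies at or above 454 CPM in vehicle and at or below 297 CPM in knockout-labelled libraries.

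Clock and clock output genes served to place the comparison. Of 20 such genes tested, 4 were called higher and 11 lower, with a median log2 fold change of -0.67 beside 0.01 over all genes. Over all genes tested 3.86% were called. Beside this share stand the counts of this and later lists at rest, in fits without a covariate. Among activators, Npas2, a partner of BMAL1, held 0 to 3 counts a library in vehicle and 25 to 34 in knockout-labelled muscle. With all vehicle libraries at or under 3 counts, the mean was at least 10.4-fold higher than that floor allows. Clock, the other partner, stood at 12.2, 15.1, 15.7, 13.7 and 16.5 CPM in vehicle against 33.9, 43.2, 39.4, 42.7 and 26.7 CPM in knockout-labelled libraries (log2 change 1.34, SE 0.13, adjusted p 3.98e-07). Among the PAR bZIP activators Dbp fell from 74.998 ± 7.46 to 11.8 ± 1.34 CPM (log2 change -2.66, SE 0.10, adjusted p 2.80e-14), Tef from 329.7 ± 22.3 to 147 ± 15.8 CPM and Hlf from 22.98 ± 3.33 to 6.62 ± 1.76 CPM, with no overlap for any of them. Nfil3, a repressor that competes for the same D-box letters, rose from 29.4 ± 6.46 to 75.98 ± 16.3 CPM (log2 change 1.37, SE 0.17, adjusted p 3.01e-05).

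Among the repressors of the loop, Per2, Per3, Cry2 and Ciart fell, with log2 fold changes of -1.11, -1.41, -0.66 and -2.33, while Cry1 rose (0.52). Per1 stood at 56.1 ± 8.96 and 31.99 ± 19.2 CPM and was not called (adjusted p 0.179). The paralogous REV-ERB genes parted: Nr1d2 fell from 87.8 ± 13.3 to 31.8 ± 7.83 CPM (log2 change -1.46, SE 0.17, adjusted p 1.65e-05), while Nr1d1 stood at 39.9, 35.3, 36.8, 48.8 and 43.9 CPM in vehicle against 48.1, 35.5, 41.95, 36.7 and 38.3 CPM in knockout-labelled libraries, groups that overlapped throughout (log2 change -0.03, SE 0.14, adjusted p 0.956). Exons of Nr1d1 overlap those of Thra, a thyroid hormone receptor on the other strand that rose (log2 change 0.52, SE 0.11, adjusted p 0.00724), so the Nr1d1 count may hold reads from Thra. Bhlhe40, the repressor DEC1, and Usp2, a clock-driven deubiquitinase, fell as well (log2 fold changes -1.25 and -0.67). Antisense or overlapping genes in the annotation of Dbp, Bhlhe40, Bhlhe41 and Cry2 were called lower with them, and their reads cannot be told apart without strand. Bhlhe41, the relative DEC2, was lower by a smaller margin (log2 fold change -0.53, adjusted p 0.0358), a call lost in 6 of the 10 leave-one-out fits, with adjusted p reaching 0.129 (without vehicle library 4).

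The start regions of these genes differ in the letters that clock factors are known to read, and windows that hold such letters are shown as examples. Each window runs from 250 bases before to 50 bases after a RefSeq start site on GRCm38.p6, 5′ to 3′ along the gene's strand. Capitals mark the E-box CACGTG, the D-box TTATGTAA or TTACGTAA, or the RORE core TAGGTCA or TGGGTCA through which REV-ERB and ROR factors act, searched on both strands. Ciart (fell, chr3:95882179-95882478, minus strand) holds 3 E-boxes, at 116, 58 and 44 bases before the start. Tef (fell, chr15:81811164-81811463, plus strand) holds 1 E-box. Per3 (fell, chr4:151044616-151044915, minus strand) holds 2 D-boxes, at 205 and 158 bases before the start, and no E-box of these letters. Nfil3 (rose, chr13:52980990-52981289, minus strand) holds a RORE core read on the opposite strand, 12 bases before the start. Wsb1 (rose, chr11:79254646-79254945, minus strand), outside the clock list, holds 2 E-boxes at 219 and 183 bases before the start. In none of these windows do 2 marked motifs overlap. Of the 15 called clock genes 13 matched a RefSeq promoter, and 6 of them held any of these letters. An E-box stood in Bhlhe41, Ciart and Tef, which fell, and in Cry1, which rose. None of the letters stood in the windows of 7, namely Dbp, Hlf, Nr1d2, Cry2 and Usp2, which fell, and Clock and Npas2, which rose.
Ciart: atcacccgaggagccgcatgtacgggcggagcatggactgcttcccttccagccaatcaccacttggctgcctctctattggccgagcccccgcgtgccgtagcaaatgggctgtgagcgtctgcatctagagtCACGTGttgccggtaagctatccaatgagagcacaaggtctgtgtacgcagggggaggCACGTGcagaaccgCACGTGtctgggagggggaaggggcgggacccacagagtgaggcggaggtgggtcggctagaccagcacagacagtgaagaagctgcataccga
Tef: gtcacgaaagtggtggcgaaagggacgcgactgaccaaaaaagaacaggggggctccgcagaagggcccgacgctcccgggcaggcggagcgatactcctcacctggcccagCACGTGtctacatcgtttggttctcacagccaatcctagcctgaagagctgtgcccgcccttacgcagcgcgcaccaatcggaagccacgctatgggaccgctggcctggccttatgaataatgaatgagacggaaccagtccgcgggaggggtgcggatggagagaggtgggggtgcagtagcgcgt
Per3: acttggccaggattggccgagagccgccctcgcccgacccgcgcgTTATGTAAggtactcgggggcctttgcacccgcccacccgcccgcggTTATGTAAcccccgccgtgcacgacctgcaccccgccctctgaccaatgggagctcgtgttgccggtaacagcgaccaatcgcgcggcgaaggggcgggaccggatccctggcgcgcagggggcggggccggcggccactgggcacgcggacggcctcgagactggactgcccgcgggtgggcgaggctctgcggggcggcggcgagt
Nfil3: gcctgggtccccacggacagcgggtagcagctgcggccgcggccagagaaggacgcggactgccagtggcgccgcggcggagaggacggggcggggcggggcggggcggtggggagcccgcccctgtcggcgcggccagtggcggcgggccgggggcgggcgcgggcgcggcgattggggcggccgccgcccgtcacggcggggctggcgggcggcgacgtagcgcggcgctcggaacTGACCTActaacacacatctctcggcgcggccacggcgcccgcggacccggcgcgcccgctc
Wsb1: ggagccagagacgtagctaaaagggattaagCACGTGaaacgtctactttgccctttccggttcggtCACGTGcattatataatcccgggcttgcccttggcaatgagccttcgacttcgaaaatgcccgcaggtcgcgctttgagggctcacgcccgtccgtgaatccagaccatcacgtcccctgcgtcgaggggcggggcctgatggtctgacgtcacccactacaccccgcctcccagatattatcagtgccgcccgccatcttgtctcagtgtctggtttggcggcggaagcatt

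Over all genes the letters were counted in the same windows, for the 9723 tested genes that matched a RefSeq promoter by symbol. An E-box stood in 11.8% of all of these genes, in 20 of 179 called higher (11.2%) and in 29 of 207 called lower (14.01%). A RORE core stood in 6.28% of all genes, 7.82% of those called higher and 5.80% of those called lower. A D-box stood in 79 genes in all (0.813%), in 1 of 179 called higher (0.559%) and in 9 of 207 called lower (4.35%). The 9 were Per3, Coq10b, Map2k6, Txndc16, Smim10l1, Abhd11, Aktip and 2 clone-named genes. Map2k6, a kinase upstream of p38, fell from 28.04 ± 2.095 to 14.1 ± 2.62 CPM (log2 change -0.99, SE 0.11, adjusted p 3.81e-06). Genes called lower had more windows each (mean 1.48) than all genes (1.28), since each start site has its own. These shares are descriptions of letters in a window, with no test.

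Fibre-type genes were examined next, since a gastrocnemius holds a deep part rich in slow fibres and a larger fast part. No slow-fibre gene was called among 12 tested, although all 12 had a positive log2 fold change and the median was 0.70. Summed over the list, slow-fibre genes stood at 2839, 2488, 1372, 723 and 107 CPM in vehicle libraries 1 to 5 and 3593, 4232, 1547, 302 and 2338 CPM in knockout-labelled libraries 1 to 5. Vehicle library 5 and knockout-labelled library 4 were far below the others of their groups, and the groups overlapped. Myh7, the slow myosin heavy chain, stood at 424 ± 342 and 684 ± 477 CPM (log2 change 0.69, SE 1.54, adjusted p 0.8995), and Atp2a2, the slow-fibre calcium pump, at 321 ± 229.5 and 483 ± 278 CPM (log2 change 0.59, SE 0.92, adjusted p 0.842). Of 15 fast-fibre genes none was called and the median log2 fold change was 0.02. Myh4, the fastest myosin heavy chain, had a log2 fold change of -0.16 (adjusted p 0.829), and Atp2a1, the fast-fibre calcium pump, of -0.10 (adjusted p 0.837). After exercise the median was -0.28 for slow-fibre and 0.01 for fast-fibre genes, again with no call. With the slow-fibre score of each library as a covariate, Casq2, the calsequestrin of slow fibres, was called higher (log2 fold change 1.21, adjusted p 9.76e-04), as was Mylpf, the fast regulatory light chain (0.52, adjusted p 0.00879). Myh7 then had a log2 fold change of -0.42 and Myh4 of 0.01. The score is the mean over the slow-fibre list, so it holds Myh7 and Casq2 themselves, and the value of Myh7 adjusted for it moves toward or past 0 by construction. The adjusted value of Casq2 is likewise set against a mean that holds it, so its call is no independent result. Without the covariate Casq2 was not called (log2 change 1.65, edgeR adjusted p 0.280). The same covariate raised the number of called genes from 523 to 873 of the 13560 tested. Of the 873, 522 were among the 523. List counts with the covariate stand beside that larger number. Over the 37 gene lists used here it added 28 calls, 20 higher and 8 lower, and removed that of Pdk4. Myogenic transcription factors were split, with Tead4 higher and Nfatc2, a calcium-regulated NFAT factor, lower among 25 tested (median -0.06). Nfatc2 stood at 14.8, 14.2, 13.7, 13.9 and 11.7 CPM in vehicle against 7.46, 6.32, 6.199, 6.58 and 7.13 CPM in knockout-labelled libraries (log2 change -1.02, SE 0.14, adjusted p 4.66e-05), with no overlap.

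Calcium handling genes of the sarcoplasmic reticulum had 2 of 19 members called higher and none lower, with a median log2 fold change of 0.11. Mrln encodes myoregulin, a micropeptide that inhibits the calcium pump of fast muscle. It stood at 26.8, 21.9, 28.1, 35.1 and 32.1 CPM in vehicle against 93.3, 75.8, 59.7, 86.6 and 67.6 CPM in knockout-labelled libraries (log2 change 1.41, SE 0.19, adjusted p 5.77e-05), and the ranges were well apart. Stim1, the calcium sensor that opens store-operated entry, rose by less, from 245 ± 14.9 to 331 ± 25.6 CPM (log2 change 0.44, SE 0.08, adjusted p 8.94e-04). With the slow-fibre covariate, which raised calls over all genes too, 6 members were called instead of 2. Asph, Srl, Stac3 and Trdn were added, each higher by a log2 fold change between 0.28 and 0.48. The release channel and its partners on the list were not called without the covariate.

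Glucose uptake and the pyruvate dehydrogenase switch had 6 of 21 tested members called (3.86% of all genes were), 2 higher and 4 lower, with a median log2 fold change of -0.07. Beside Slc2a3, Hk2, the hexokinase that traps glucose in muscle, stood at 458, 463, 618, 465 and 454 CPM in vehicle against 280.1, 276, 285, 293 and 297 CPM in knockout-labelled libraries (log2 change -0.78, SE 0.18, adjusted p 0.0129). Its vehicle library 3 was above the other vehicle libraries, which all still lay above every knockout-labelled library, and without it the adjusted p was 0.0462. Tbc1d1, a Rab GTPase-activating protein that holds glucose transporters inside the fibre, fell from 108 ± 29.2 to 41.7 ± 15.3 CPM (log2 change -1.37, SE 0.35, adjusted p 0.03804). Pdk4, the kinase that shuts pyruvate dehydrogenase, stood at 432, 415, 449, 456 and 433 CPM in vehicle against 576, 1259.8, 714, 551 and 925 CPM in knockout-labelled libraries (log2 change 0.88, SE 0.24, adjusted p 0.0478). Knockout-labelled library 2 was the highest, and the ranges did not overlap. Pdp1, the phosphatase that reopens the enzyme, was lower, at 75.7 ± 7.99 and 55.1 ± 4.11 CPM (log2 change -0.46, SE 0.12, adjusted p 0.0272). Pdhx, a structural subunit, was higher and only just passed (log2 fold change 0.30, adjusted p 0.0495), and its leave-one-out fits were not read. The calls of Slc2a3 and Hk2 held in all 10 leave-one-out fits. Those of Tbc1d1, Pdk4 and Pdp1 were lost in 7, 8 and 5 of them, with adjusted p of up to 0.09902 (without vehicle library 5), 0.174 (without knockout-labelled library 2) and 0.0717 (without vehicle library 2). The Pdk4 call was also lost in 5 of 12 other fits, among them limma-voom, the replicate block and the slow-fibre covariate (adjusted p up to 0.148). Without the filter on low counts 2 members of the list were called in place of 6. The calls lost there included those of Hk2 (edgeR adjusted p 0.0525), Tbc1d1 and Pdk4.

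Glycolysis and glycogen genes had 2 of 28 members called, both lower, and a median log2 fold change of -0.13. Pfkm, the muscle phosphofructokinase that commits sugar to glycolysis, stood at 3404, 3211, 4251, 5090.3 and 4559 CPM in vehicle against 2399, 2445, 2787, 2576 and 2687 CPM in knockout-labelled libraries (log2 change -0.67, SE 0.12, adjusted p 0.00135). All of its knockout-labelled libraries were below all vehicle libraries. Fbp2, the muscle fructose bisphosphatase that runs the opposite reaction, also fell, from 35.3 ± 4.93 to 18.1 ± 4.37 CPM (log2 change -0.96, SE 0.21, adjusted p 0.00769). The remaining 26 members, which include the other glycolytic enzymes and glycogen phosphorylase, did not pass the test. With the slow-fibre covariate 2 of these were called, both higher: Pgk1, phosphoglycerate kinase (log2 fold change 0.31, adjusted p 0.0157), and Ppp1r3c, which targets a phosphatase to glycogen (0.73, adjusted p 0.00532).

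Fatty acid uptake, lipolysis and oxidation had 1 of 41 members called, Ces1d, although 29 members had a positive log2 fold change and the median was 0.21. With the slow-fibre covariate 6 were called. Plin5, the lipid droplet protein of oxidative fibres, then had a log2 change of 1.29 (SE 0.26, adjusted p 0.00496), against 1.47 (adjusted p 0.131) without it. Genes of glycerolipid and fatty acid synthesis had 3 of 31 called, all higher, and a median of -0.01. Agpat3, an acyltransferase on the way to phosphatidic acid, stood at 105, 97.5, 103, 98.4 and 107 CPM in vehicle against 209, 213, 189.8, 209.8 and 212 CPM in knockout-labelled libraries (log2 change 1.02, SE 0.08, adjusted p 6.17e-09), with narrow ranges that lay far apart. Lpin1, the lipin that makes diacylglycerol, rose from 284 ± 14.8 to 407 ± 30.9 CPM (log2 change 0.52, SE 0.09, adjusted p 8.09e-04). Cept1, which joins diacylglycerol to choline or ethanolamine head groups, was higher, at 17.4 ± 2.19 and 27.3 ± 5.204 CPM (log2 change 0.65, SE 0.16, adjusted p 0.0241), but its call was lost in 4 of the 10 leave-one-out fits (adjusted p up to 0.0822, without knockout-labelled library 1). Dgat2, the last enzyme of triglyceride synthesis, stood at 66.6, 68.2, 45.7, 9.23 and 6.88 CPM in vehicle against 15.4, 15.9, 10.7, 5.71 and 13.3 CPM in knockout-labelled libraries and was not called (log2 change -1.70, SE 0.77, adjusted p 0.321). With the slow-fibre covariate its log2 change was -2.02 (SE 0.25, adjusted p 5.94e-05). It was chosen for mention after these values were seen.

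Nuclear-encoded respiratory chain genes had 3 of 80 tested members called (3.75%, beside 3.86% of all genes), while 73 of the 80 had a positive log2 fold change and the median was 0.19. After exercise the median was -0.13, with no member called higher and 6 lower, beside 3.75% of all genes called lower in that comparison. The 3 called at rest, all higher, were Ndufb8 and Ndufb7 of complex I and Cox5a of complex IV. Cox5a stood at 311 ± 29.5 and 410.01 ± 34.04 CPM (log2 change 0.40, SE 0.11, adjusted p 0.0314). None of the 3 was called when libraries were scaled by size only, and across leave-one-out fits 0 to 3 of the list were called. Summed over the list, vehicle libraries 1 to 5 stood at 21356, 21003, 19429.8, 19050.4 and 14889.9 CPM and knockout-labelled libraries at 22625, 27502, 19679.7, 18606 and 22154 CPM. The lowest value was in vehicle library 5, which was also lowest in slow-fibre genes, and the highest in knockout-labelled library 2, which was highest in them. With the slow-fibre covariate, which raised calls over all genes too, 4 members were called. Transcripts of mitochondrial DNA had no call among 12 tested and a median of -0.10.

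Of 16 genes of the citric acid cycle only Sucla2 was called. It encodes the ATP-forming subunit of succinyl-CoA ligase and stood at 439, 442, 408, 369 and 338 CPM in vehicle against 576, 638, 575, 570.3 and 593 CPM in knockout-labelled libraries (log2 change 0.56, SE 0.09, adjusted p 1.88e-04), without overlap. Carriers of the SLC25 family, which move metabolites across the inner mitochondrial membrane, had 1 of 38 tested members higher and 2 lower (median 0.03). Slc25a36, a pyrimidine nucleotide carrier, rose from 33.5 ± 7.51 to 56.05 ± 5.99 CPM (log2 change 0.74, SE 0.12, adjusted p 4.14e-04). Slc25a37, the iron importer mitoferrin 1, fell from 29.3 ± 5.58 to 18.96 ± 2.48 CPM (log2 change -0.62, SE 0.14, adjusted p 0.00995), beside the much larger fall of Slc25a30. None of 18 regulators of mitochondrial biogenesis and dynamics was called, with a median of 0.12. Branched-chain and related amino acid genes had 1 of 23 called. That was Gpt, the alanine aminotransferase, at 21.9, 25.5, 21.8, 19.1 and 18.1 CPM in vehicle against 40.04, 50.9, 36.4, 40.1 and 54.2 CPM in knockout-labelled libraries (log2 change 1.06, SE 0.17, adjusted p 5.00e-04). Every knockout-labelled library exceeded every vehicle library for Gpt.

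**Figure D3:**
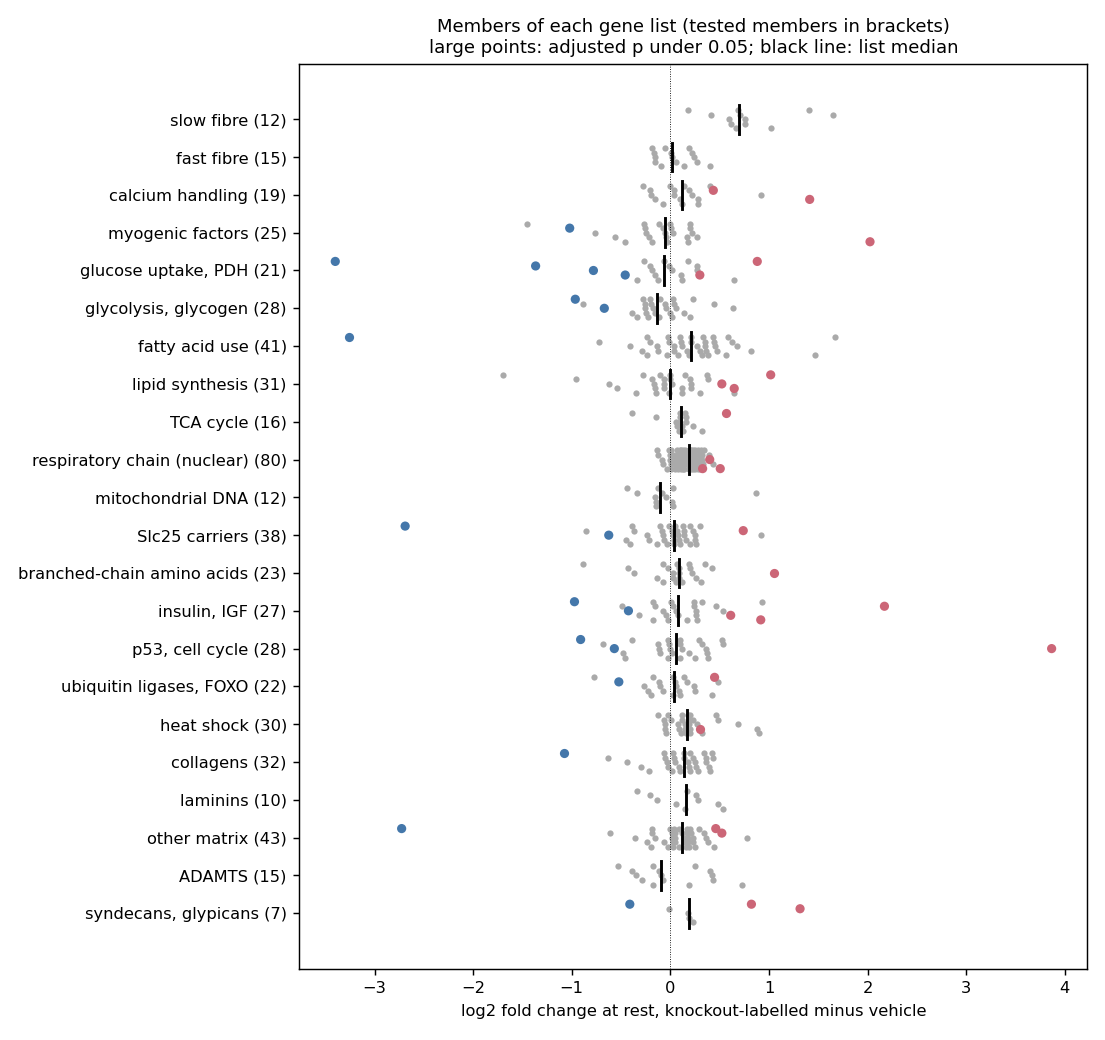
Each point is 1 tested member of a gene list, placed by its log2 fold change at rest (horizontal, knockout-labelled minus vehicle), with lists as rows and the number tested in brackets. Large coloured points passed an adjusted p under 0.05 and the black line is the list median, which lies between -0.13 (glycolysis and glycogen) and 0.70 (slow fibre, no member called) over the lists drawn.

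Few matrix genes were called. Log2 fold changes were positive for 23 of 32 collagen chains, 7 of 10 laminin chains and 32 of 43 other matrix genes. They were positive for 6 of 15 ADAMTS genes, and 48.3% of all tested genes had a negative value. A shift shared by these lists was not tested. Of 32 collagen chains tested 1 was called: Col24a1, a minor fibrillar collagen, stood at 6.65 ± 1.11 CPM in vehicle against 3.13 ± 1.19 CPM in knockout-labelled muscle (log2 change -1.08, SE 0.25, adjusted p 0.0105). The collagen median was 0.14. None of 10 laminin chains was called. Lamb2, the laminin chain of the neuromuscular junction, stood at 106, 105, 93.2, 93.01 and 108 CPM in vehicle against 118, 119.6, 117, 119 and 140.5 CPM in knockout-labelled libraries and just missed the threshold (log2 change 0.28, SE 0.08, adjusted p 0.0564). Lamb2 was called with DESeq2, with limma-voom and with the slow-fibre covariate (edgeR adjusted p 0.0343 in the last). After exercise it was called as well (log2 change 0.36, edgeR adjusted p 0.00782). Of 43 other matrix genes Aebp1 fell, while Sparc, a collagen-binding glycoprotein, and Tgfb3, a TGF-beta ligand, were higher (median 0.12). Sparc stood at 100.4 ± 14.1 and 144 ± 26.5 CPM (log2 change 0.52, SE 0.13, adjusted p 0.0223), and Tgfb3 at 33.04 ± 4.69 and 45.4 ± 2.65 CPM (log2 change 0.46, SE 0.12, adjusted p 0.0322). Their calls were lost in 3 and 7 of the 10 leave-one-out fits, with adjusted p of up to 0.0833 (without knockout-labelled library 4) and 0.103 (without vehicle library 4). None of 15 ADAMTS and ADAMTS-like genes was called (median -0.09).

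Cell-surface proteoglycans had 3 of 7 tested members called, beside 3.86% of all genes tested. Gpc4, a glypican that binds growth factors through heparan sulfate, stood at 18.9, 16.4, 14.8, 13.5 and 17.2 CPM in vehicle against 39.8, 42.3, 36.4, 41.4 and 41.6 CPM in knockout-labelled libraries (log2 change 1.32, SE 0.11, adjusted p 4.85e-08). The ranges were clearly apart. Gpc1, another glypican, was lower (log2 change -0.41, SE 0.11, adjusted p 0.0339) and Sdc4, a syndecan also used as a satellite cell marker, higher (log2 change 0.82, SE 0.22, adjusted p 0.0421). The Gpc1 and Sdc4 calls were lost in 6 and 8 of the 10 leave-one-out fits, with adjusted p of up to 0.128 (without vehicle library 5) and 0.122 (without vehicle library 5). The other syndecans and glypicans tested were not called.

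Growth signalling and cell-cycle genes were examined around Cdkn1a and Igf2bp2. Of 28 genes of the p53 and cell-cycle list, Cdkn1a rose and Wee1 and Tigar were lower, with a median of 0.05. Tigar, a phosphatase that lowers fructose 2,6-bisphosphate, fell from 168 ± 23.6 to 113 ± 15.3 CPM (log2 change -0.57, SE 0.11, adjusted p 0.00315). Wee1, the kinase that restrains entry into mitosis and a known clock target, stood at 5.03 ± 0.726 and 2.67 ± 0.977 CPM (log2 change -0.91, SE 0.22, adjusted p 0.01901), a call lost in 4 of the 10 leave-one-out fits, with adjusted p reaching 0.0624 (without knockout-labelled library 3). The other p53 targets on the list, Mdm2, Ccng1, Sesn1, Bax and Phlda3 among them, were not called. Of 27 insulin and IGF genes tested, 3 were higher and 2 lower (median 0.07).

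In that list Pik3ca, the catalytic subunit of phosphoinositide 3-kinase, stood at 38.2, 33.2, 39.4, 32.97 and 35.5 CPM in vehicle against 56.8, 80.2, 74.3, 71.8 and 55.2 CPM in knockout-labelled libraries (log2 change 0.92, SE 0.11, adjusted p 5.61e-06), with no overlap. Grb10, an adaptor that dampens the insulin receptor, rose from 23.7 ± 4.67 to 36.4 ± 3.37 CPM (log2 change 0.61, SE 0.14, adjusted p 0.0105). Igfbp5, a secreted IGF-binding protein of muscle, stood at 619.9, 649.6, 628, 860.5 and 835 CPM in vehicle against 398, 344, 378, 406 and 306 CPM in knockout-labelled libraries (log2 change -0.97, SE 0.20, adjusted p 0.004495). All of its knockout-labelled libraries were below the lowest vehicle library. Akt1 was lower by a log2 fold change of -0.43 (adjusted p 0.04698), a call lost in 9 of the 10 leave-one-out fits, with adjusted p reaching 0.1204 (without knockout-labelled library 4). Of 22 ubiquitin ligase, FOXO and autophagy genes, Fbxo40, a ligase that acts on IRS1, rose from 396 ± 22.2 to 539.9 ± 27.3 CPM (log2 change 0.45, SE 0.10, adjusted p 0.0115). Fbxo21 was lower (log2 change -0.52, SE 0.13, adjusted p 0.0252) but lost its call in 6 of those fits, with adjusted p reaching 0.0781 (without vehicle library 5). The atrophy ligases Fbxo32 and Trim63 were not called.

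Stress and secreted-factor lists held almost no calls. Among 30 heat-shock genes Hspa4, a nucleotide exchange factor for HSP70, was called (log2 change 0.31, SE 0.08, adjusted p 0.0428), and it lost the call in 7 of the 10 leave-one-out fits (adjusted p up to 0.166, without knockout-labelled library 2). No member was called among 13 glucocorticoid-responsive genes (median -0.06), 13 hypoxia genes (0.04) and 23 myokines and secreted factors (0.02). Mstn, the growth inhibitor myostatin, stood at 88.4 ± 27.4 and 64.1 ± 21.7 CPM (log2 change -0.46, SE 0.32, adjusted p 0.577). Across the 37 lists 732 genes were tested and 58 were called, 28 higher and 30 lower, which is 7.92% beside 3.86% of all genes tested. The lists were drawn up with earlier results of these data known, so this share is not independent evidence. In 17 of the 37 lists no gene was called.

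Markers of other cell types in the tissue were read in the same way. No marker was called among 12 of fibro-adipogenic cells (median log2 fold change 0.13), 10 of endothelium (-7.96e-04), 9 of macrophages (-0.05), 5 of Schwann cells and nerve (0.06), 5 of blood (0.04), 6 of tendon (0.13) and 7 of smooth muscle and pericytes (0.05). Of 7 satellite cell markers Sdc4 was called. Of 13 genes of the neuromuscular junction and of denervated fibres none was called (median 0.06), and 2 were called with the slow-fibre covariate. Fat cell markers had 6 tested members and a median of -0.42, with Car3, also a muscle enzyme, the only one called. The defining fat cell gene Adipoq was at 2.55 ± 1.44 and 2.81 ± 4.196 CPM, Cfd at 18.9 ± 13.3 and 14.01 ± 20.6 CPM and Plin1 at 3.08 ± 1.6002 and 2.42 ± 3.03 CPM. The mean log2 CPM of the fat list ran from 2.41 to 4.03 in vehicle and from 0.03 to 4.18 in knockout-labelled libraries, low in knockout-labelled libraries 2 and 3 and highest in knockout-labelled library 1. That library was also highest in its group for Ces1d, which fat cells express, and the part of fat cells in the Ces1d values was not tested.

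**Figure D4:**
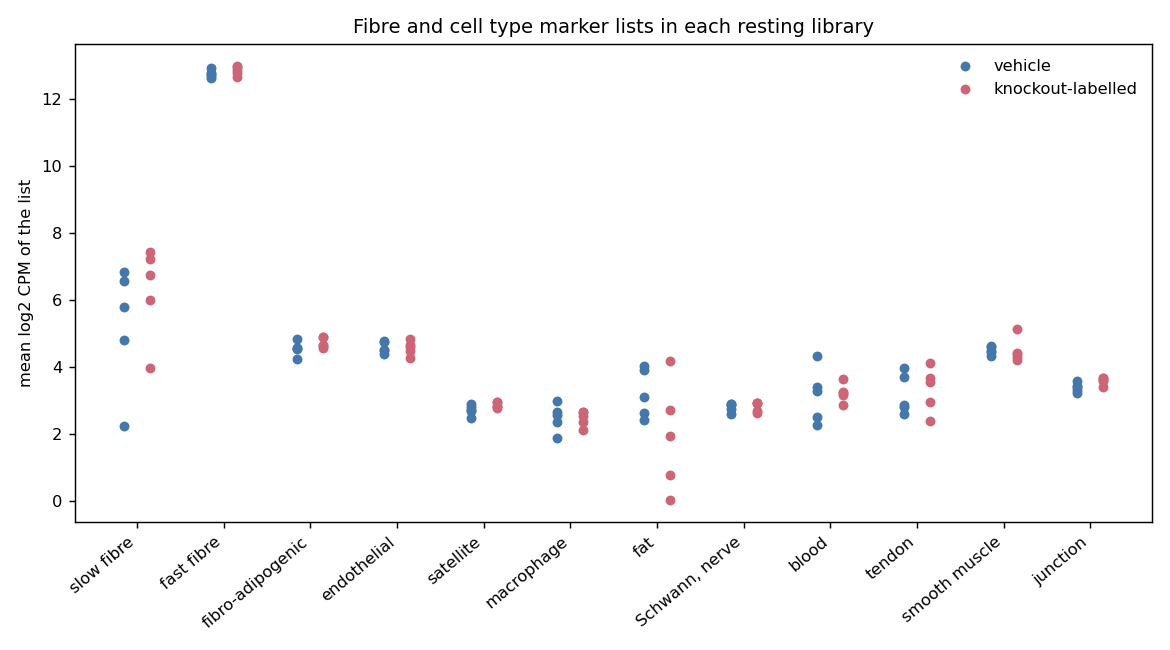
Each point is 1 resting library, placed by the mean log2 CPM of a marker list (vertical), with vehicle and knockout-labelled groups side by side for 12 lists of fibre types and cell types. The groups overlap in every list, and slow-fibre markers spread widely within both groups, from 2.24 to 6.83 in vehicle and from 3.98 to 7.43 in knockout-labelled libraries, as fat cell markers do in knockout-labelled libraries, from 0.03 to 4.18.

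The same genes were read in the 10 exercised libraries, whose group means rest on other samples. They are not a separate check, since 1 model of all 20 samples gave both comparisons a shared estimate of the spread. There, 870 of 13560 genes (6.42%) were called between knockout-labelled and vehicle muscle, 2.67% of the genes tested higher and 3.75% lower. Of the 24 genes with the largest changes at rest, all 24 had the same sign after exercise and 22 were called in that direction. The exceptions were Actc1 (log2 fold change 0.92, adjusted p 0.07098) and Nhs (-0.91, adjusted p 0.242). Of all 523 genes called at rest, 512 had the same sign after exercise and 332 were called in that direction. Of the 58 list genes among them, 58 had the same sign and 39 were called after exercise. Nfil3 was one that was not, at 96.6 ± 20.3 CPM in vehicle against 105 ± 15.4 CPM in knockout-labelled muscle (log2 change 0.12, adjusted p 0.758). Lpin1 stood at 425 ± 56.6 and 428 ± 15.999 CPM (0.01, adjusted p 0.969), Igfbp5 at 527 ± 113 and 373 ± 126 CPM (-0.50, adjusted p 0.143), and Pdp1 at 59.7 ± 11.01 and 59.001 ± 9.16 CPM (-0.02, adjusted p 0.9596). Aebp1, Agpat3, Gpt, Gpc4 and Pfkm were called in both states, with log2 fold changes after exercise of -2.12, 1.03, 1.04, 1.76 and -0.69. The difference between both states was tested as an interaction in the same edgeR model: no gene was called, 791 had an unadjusted p under 0.05, and the smallest adjusted p among the genes called at rest was 0.275. Lpin1 and Aebp1 had unadjusted interaction p of 4.99e-04 and 6.47e-04 (adjusted p 0.671 for both), so the absence of calls does not show that the effects were alike.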

How the data were processed

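RNA of 20 gastrocnemius samples was sequenced, and 1 table of whole-number counts per gene symbol, deposited by the authors, was used. The submitters' processing notes name Partek, STAR 2.7.8a, DESeq2 and the builds mm10 and GRCm39, without roles. The counting program, the strand setting and the annotation are not given in the sources used here. Groups came from each sample's title and treatment label.

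Counts were analysed with edgeR 4.0.16 in R 4.3.3. Genes were kept by filterByExpr with a minimum of 10 counts (13560 genes, 99.83% of counts), scaling used trimmed means of M-values (TMM), and a robust quasi-likelihood model with 1 mean per group was fitted to all 20 samples (16 residual degrees of freedom). The contrast was knockout-labelled minus vehicle at rest, with Benjamini-Hochberg adjustment over all genes tested. Standard errors (SE) came from the F statistics, CPM are TMM-scaled, and log2 CPM used a prior count of 2. A floor of 3 counts stood for genes at or near 0. Such limits cover counting error only. The script recovered known changes in simulated counts. Those counts were drawn for each gene separately, without the fibre differences between these libraries, so the run checks the code only.

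Named genes were the 12 largest rises and falls among called genes with non-overlapping ranges and a mean log2 CPM of at least 1, up to 5 called members of each list (or the 2 most expressed), and the clock genes. Predicted and clone-named genes were counted, 44 of 424 in the pool for the largest changes. The comparison, the lists and the named genes were chosen with earlier results of these data known. Exon overlaps were read from GENCODE M21, which held 97.06% of the symbols, and promoters from RefSeq on GRCm38.p6.

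The labels do not say that replicate numbers pair the samples, so the main fit had no block. Alternatives were other scalings, DESeq2 1.42.0, limma-voom (limma 3.58.1), other filters, thresholds and sample sets, a replicate block, a slow-fibre covariate, mitochondrial genes left out and each library left out. The closest libraries within a group differed beyond sampling noise (chi-square per degree of freedom 4.04 in vehicle and 12.2 in knockout-labelled muscle), so none was treated as a duplicate.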

Additional observations from a re-analysis of the deposited data

Results flagged for a closer look

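Of 292 sets of 5 library values tested with Dixon's criterion, 13 (4.45%) had a highest or lowest library whose gap to the next exceeded 0.71 of the range, 5 in vehicle and 8 in knockout-labelled muscle. Chance gives about 1 in 20. In vehicle, Cdkn1a was lowest in library 1 (4.41 CPM, the others 6.44 to 7.17), Hk2 was highest in library 3 (618 CPM, the others 454 to 465), Tnfrsf12a in library 3 (15.2 CPM, the others 6.55 to 8.004), Pdp1 in library 2 (89.6 CPM, the others 70.2 to 75.2) and Alb in library 2 (0.179 CPM, the others 0). In knockout-labelled muscle, Agpat3 was lowest in library 3 (189.8 CPM, the others 209 to 213), Asb10 in library 2 (71.7 CPM, the others 87.7 to 92.9), Bcl2 in library 2 (3.56 CPM, the others 5.35 to 6.07) and Mreg in library 4 (14.99 CPM, the others 24.1 to 26.3). Highest values were those of Ces1d in library 1 (9.20 CPM, the others 0.919 to 3.23), Cept1 in library 1 (36.3 CPM, the others 22.8 to 26.2), Lamb2 in library 5 (140.5 CPM, the others 117 to 120) and Rpia in library 3 (12.8 CPM, the others 9.31 to 10.1). The Cept1, Pdp1 and Alb calls were lost without the library named here, with an edgeR adjusted p of 0.0822, 0.0717 and 0.125. That of Tnfrsf12a was lost in 7 of the 10 leave-one-out fits (adjusted p up to 0.0893, without vehicle library 5). The interaction test, which set the knockout-labelled against vehicle difference at rest beside that after exercise, called no gene, and 791 had an unadjusted p under 0.05.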

How the results depend on the processing

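The number of genes called at rest was 523. Other scalings gave 503 to 526, limma-voom 504, DESeq2 673, no filter 428, a minimum of 50 counts 531, the 10 resting samples alone 589, and mitochondrial genes left out 524. A slow-fibre covariate gave 873, an adjusted p under 0.01 gave 267, and requiring also a 2-fold change gave 134. Leaving out 1 library gave 367 (without vehicle library 3) to 464 (without vehicle library 2). Deviations of same-numbered libraries correlated between -0.13 and 0.41, and 2 of 5 numbers matched best with themselves. These values gave no clear sign of pairing by replicate number, but they cannot exclude it. With the replicate number as a block 604 genes were called, 439 of them among the 523. Of 134 called genes checked singly, most but not all of them described here, 96 lost no call when any 1 library was left out. Under the other alternatives 102 lost none, and 93 lost none under any. Signs turned for 3 genes that were not called: Myh7 (-0.42) and Myh4 (0.0061) with the slow-fibre covariate, and Nr1d1, whose log2 fold change ran from -0.10 to 0.042 over fits without 1 library (0.0019 without knockout-labelled library 4). The cause was not tested. At this depth genes with a few counts, such as Prss55 and Igf2bp2, have imprecise fold changes. The whole-gene Arntl count and the absent strand setting also limit what these values show.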

Other observations

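The groups below were put together after the values were seen, so they describe and do not support. Their counts stand beside 3.86% called over all genes tested. Components of the dystrophin complex, which ties the fibre's cytoskeleton to the matrix, had 1 of 16 tested members higher and 3 lower. Sntb1, the beta-1 syntrophin, stood at 6.61, 6.99, 4.91, 5.78 and 6.11 CPM in vehicle against 3.11, 2.298, 2.99, 1.51 and 1.49 CPM in knockout-labelled libraries (log2 change -1.42, SE 0.33, adjusted p 0.0114). Sspn, sarcospan, fell from 88.2 ± 4.72 to 66.2 ± 1.86 CPM (log2 change -0.41, SE 0.08, adjusted p 0.00239) and Pomgnt2, which builds the sugar chain of dystroglycan, from 15.1 ± 1.33 to 9.72 ± 0.613 CPM (log2 change -0.63, SE 0.11, adjusted p 0.00138). Sgcd, delta-sarcoglycan, was higher with overlapping ranges (log2 change 1.24, SE 0.31, adjusted p 0.0228), a call lost in 5 of the 10 leave-one-out fits (adjusted p up to 0.0851, without knockout-labelled library 4). Of 18 genes of the Z-disc and titin 2 were called, both lower. Synpo2, an actin-binding Z-disc protein, had a log2 change of -0.31 (adjusted p 0.0272) and lost its call in 5 of those fits (adjusted p up to 0.0873, without knockout-labelled library 5). Tcap, the cap of titin at the Z-disc, stood at 2596, 2642, 2858, 2725 and 2678 CPM in vehicle against 776, 1007, 1101, 798 and 915 CPM in knockout-labelled libraries (log2 change -1.55, SE 0.35, adjusted p 0.0134), without overlap. Outside that list the myotonic dystrophy kinase Dmpk rose from 307 ± 12.5 to 479 ± 24.3 CPM (log2 change 0.64, SE 0.09, adjusted p 8.00e-05). The ankyrin Ank2 was higher, at 49.3 ± 19.5 and 107 ± 21.5 CPM (log2 change 1.12, SE 0.28, adjusted p 0.02697), a call lost in 5 of the 10 leave-one-out fits (adjusted p up to 0.0779, without knockout-labelled library 2).

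Ion channel subunits were mixed. Cacna2d4, an auxiliary calcium channel subunit, stood at 4.87, 5.64, 16.1, 13.4 and 13.99 CPM in vehicle against 2.61, 3.103, 3.87, 4.42 and 1.92 CPM in knockout-labelled libraries (log2 change -1.75, SE 0.32, adjusted p 0.00203), while Cacng7, another auxiliary subunit, rose from 24.9 ± 6.24 to 49.4 ± 10.9 CPM (log2 change 0.99, SE 0.17, adjusted p 9.53e-04). Of 28 potassium channel genes tested 3 were called, all lower, among them Kcnc4, a voltage-gated channel, from 61.6 ± 5.45 to 35.5 ± 5.92 CPM (log2 change -0.79, SE 0.15, adjusted p 0.00164). The other called ones, Kcnab1 and Kcnn1, had log2 fold changes of -0.77 and -0.37 and lost their calls in 7 and 8 of the 10 leave-one-out fits, with adjusted p of up to 0.117 (without vehicle library 5) and 0.137 (without knockout-labelled library 1). Itpr1, the inositol trisphosphate receptor, fell from 53.6 ± 11.6 to 22.2 ± 3.21 CPM (log2 change -1.27, SE 0.17, adjusted p 4.48e-05).

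Substrate receptors of cullin ubiquitin ligases moved in both directions. Of 16 Asb genes 1 was higher and 2 were lower, and of 28 Klhl genes 3 were higher and 2 lower, of which Klhl7 lost its call in 4 of the 10 leave-one-out fits (adjusted p up to 0.0645, without knockout-labelled library 4). Klhl30 rose from 61.8 ± 8.14 to 105 ± 11.8 CPM (log2 change 0.77, SE 0.11, adjusted p 7.22e-05) and Asb12 from 24.99 ± 2.43 to 40.7 ± 4.14 CPM (log2 change 0.71, SE 0.09, adjusted p 2.91e-05). Asb15 fell from 189.6 ± 21.9 to 104 ± 15.3 CPM (log2 change -0.87, SE 0.16, adjusted p 0.00171) and Asb10 from 151 ± 26.8 to 86.7 ± 8.61 CPM (log2 change -0.80, SE 0.13, adjusted p 3.49e-04).

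Side routes of pyruvate, the pentose phosphate path and energy sensing had 1 of 21 genes higher and 6 lower. Mpc1, a subunit of the mitochondrial pyruvate carrier, stood at 99.5 ± 12.5 and 71.6 ± 6.58 CPM (log2 change -0.47, SE 0.11, adjusted p 0.0137), and an overlapping transcript on the other strand, 4930506C21Rik, was called lower too. Vdac1, the outer-membrane channel, fell from 1226 ± 29.4 to 878 ± 76.4 CPM (log2 change -0.48, SE 0.11, adjusted p 0.0113), Rpia, an isomerase of the pentose phosphate path, from 15.2 ± 1.33 to 10.3 ± 1.44 CPM (log2 change -0.56, SE 0.12, adjusted p 0.00689), and Prkag2, a regulatory AMPK subunit, from 14.3 ± 0.729 to 8.98 ± 1.13 CPM (log2 change -0.67, SE 0.15, adjusted p 0.00817). The Mpc1 call was lost with scaling by library size only, and that of Bpgm, also lower, in 9 of the 10 leave-one-out fits (adjusted p up to 0.138, without vehicle library 4). Of 29 amino acid transporters 2 were higher and 3 lower, and the higher Slc38a4 lost its call in 4 of those fits (adjusted p up to 0.0578, without knockout-labelled library 4). Slc7a2, a carrier of cationic amino acids, stood at 75.5, 81.8, 90.3, 57.2 and 68.4 CPM in vehicle against 40.2, 33.6, 37.3, 43.99 and 24.7 CPM in knockout-labelled libraries (log2 change -1.05, SE 0.18, adjusted p 0.00105), without overlap.

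Single genes with clear separation included Smpdl3b, a phosphodiesterase of the cell surface, at 3.83, 3.404, 4.05, 4.68 and 4.44 CPM in vehicle against 0.249, 0.115, 0.332, 0.755 and 0.319 CPM in knockout-labelled libraries (log2 change -3.45, SE 0.38, adjusted p 2.82e-06). Met, the receptor of hepatocyte growth factor, fell from 9.79 ± 1.24 to 4.68 ± 0.777 CPM (log2 change -1.07, SE 0.18, adjusted p 4.96e-04) and Acvr1b, an activin receptor, from 93.7 ± 18.6 to 45.03 ± 12.1 CPM (log2 change -1.06, SE 0.22, adjusted p 0.00736). Bcl2, an inhibitor of apoptosis, fell from 9.33 ± 1.01 to 5.29 ± 1.02 CPM (log2 change -0.82, SE 0.15, adjusted p 0.00193). Agt, angiotensinogen, rose from 8.43 ± 1.26 to 18.8 ± 2.26 CPM (log2 change 1.15, SE 0.16, adjusted p 5.41e-05), and Fgf11, an intracellular FGF homologue, from 2.01 ± 0.551 to 5.48 ± 0.991 CPM (log2 change 1.45, SE 0.25, adjusted p 7.06e-04). Ighg2c, an immunoglobulin heavy chain constant gene, held 19 to 71 counts a library in vehicle and 0 to 4 in knockout-labelled muscle (log2 change -4.37, SE 0.61, adjusted p 1.03e-04). The liver protein gene Alb held 0 to 2 counts in vehicle and 0 to 60 in knockout-labelled libraries. The knockout-labelled mean was at least 8.57-fold higher than the vehicle floor of 3 counts a library, but library 2 held none, and the call (adjusted p 0.0472) was lost in 8 of the 10 leave-one-out fits (adjusted p up to 0.125, without vehicle library 2).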
